A study of Drosophila melanogaster with 6 samples.

Results

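BEAF-32 peaks with a close BEAF-32 neighbour are described here. They are the peaks on chromosome arms 2L, 3L and 3R of Drosophila melanogaster S2 cells whose nearest other BEAF-32 summit lay at most 2000 bp away. There were 423 such peaks among 2767 BEAF-32 peaks on these arms, a share of 15.3% (95% Wilson interval 14.0 to 16.7), and the whole BEAF-32 list held 4781. Members were chosen by the measured summit positions alone, so spacing is a description here, and so is every other value of the BEAF-32 list that made the calls. The other 2344 peaks on the same arms had no BEAF-32 summit that close and are called isolated. The series holds chromatin immunoprecipitation and sequencing of S2 cells, a line of embryonic origin with blood-cell traits. There are 3 samples for an antibody against BEAF-32 and 3 for one against ROW. The titles of all 6 samples begin with "con", and the labels name no treatment. Each antibody has 1 peak list for its 3 samples, with coordinates on dm3. Values per sample are not in the lists, which leaves no replicate spread to report, and peaks of a list are not replicates. Intervals below cover counting error only and treat peaks as independent.

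BEAF-32 is a DNA-binding insulator protein of flies. It recognises groups of CGATA motifs, often next to the promoters of active genes, and marks many borders between chromatin domains. ROW carries zinc fingers and AT-hooks and is a partner of the heterochromatin protein HP1c, in a complex known from the start sites of active genes. As far as the series title states it, the study asked how ROW works together with BEAF-32. The CGATA content of the peaks and the genes next to them were not analysed here, because no genome sequence or gene annotation of the lists' build was used.

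The close peaks formed 205 separate runs, and nearly all of these were simple pairs. There were 193 runs of 2 peaks, 11 runs of 3 and 1 run of 4, which gives 218 pairs of adjacent summits. The median spacing in a pair was 1387 bp (interquartile range 1115 to 1691), and the closest summits lay 537 bp apart. No pair was closer than 500 bp, 37 pairs lay over 500 and up to 1000 bp apart, 93 lay over 1000 and up to 1500 bp apart, and 88 lay over 1500 and up to 2000 bp apart. Between the facing edges of both intervals the median gap was 845.5 bp. The smallest gap anywhere on the arms was 281 bp and the shortest BEAF-32 peak measured 269 bp, so bound sites nearer to each other than this do not appear as separate peaks in the list. Outside a run the median distance to the next BEAF-32 summit was 6486 bp (4447 to 11924). For isolated peaks the median distance to the nearest one was 6513 bp (3947 to 11833). The limit of 2000 bp fell inside a range of spacings that ran on without a gap, with pairs at 1995 and 2000 bp just inside and at 2007 and 2009 bp just outside. In the 23 pairs of the last 100 bp inside the limit the median fold enrichment was 3.74 for the weaker and 7.78 for the stronger peak, and in the 27 pairs of the first 100 bp outside it was 4.37 and 12.4.

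**Figure D1:**
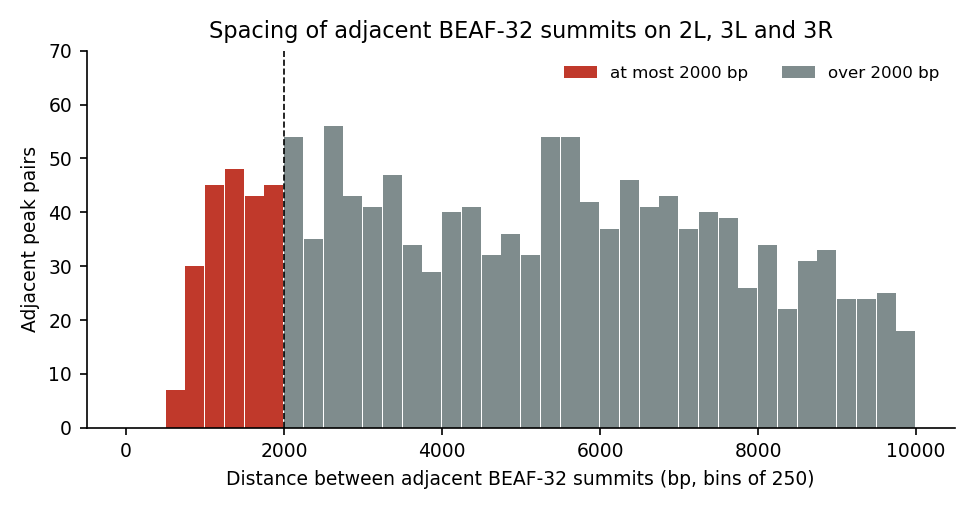
Number of adjacent BEAF-32 peak pairs (vertical axis) by the distance between their summits (horizontal axis, bp, bins of 250), with pairs of at most 2000 bp in red, wider pairs in grey and a dashed line at 2000 bp. There is no pair under 500 bp, and the counts run through the limit of 2000 bp without a step, from 45 pairs in the last bin inside it to 54 in the first bin outside.

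The largest runs were as follows. The run of 4 lay on 3L from 2586490 to 2590894, with fold enrichments of 4.84, 5.47, 9.64 and 8.17 and spacings of 769, 1976 and 1272 bp. ROW overlapped 3 of its peaks, and the one without ROW was the strongest of the 4, with the nearest ROW summit 1210 bp away. Among runs of 3, the one of highest median fold enrichment lay on 3L from 16573069 to 16576225, with fold enrichments of 9.99, 14.6 and 4.90 and ROW at all 3 peaks. The next, on 2L from 8381557 to 8384601, had fold enrichments of 6.85, 4.20 and 7.51. There ROW was at the outer peaks and missing from the weaker one in the middle.

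Close peaks were the weaker part of the BEAF-32 list. Fold enrichment, the authors' ratio of signal at the summit to local background, had a median of 4.57 (interquartile range 3.05 to 9.07) at close peaks and 8.69 (3.97 to 19.8) at isolated peaks. Isolated peaks with the nearest BEAF-32 summit over 2000 and up to 3000 bp away had a median of 6.52. From there up to 5000 bp it was 7.23, up to 10000 bp 13.8, up to 20000 bp 10.1 and beyond 7.07. A low median was thus not particular to close peaks, although theirs was the lowest. Peaks under 4-fold made up 42.3% of close peaks and 25.2% of isolated peaks, and peaks of 16-fold and over made up 11.3% of close peaks and 34.0% of isolated peaks. Close peaks were also narrower, with a median width of 481 bp against 576 bp for isolated peaks. In a pair the weaker peak had a median fold enrichment of 3.32 and the stronger one of 7.81. The stronger peak exceeded the isolated median in 103 of 218 pairs and the weaker peak in 13. Not 1 pair joined peaks that were both at 16-fold or over. Both were at 8-fold or over in 17 pairs and under 4-fold in 44 pairs. The lack of pairs with both at 16-fold or over was not particular to close pairs. Adjacent peaks over 2000 and up to 5000 bp apart also had 0 such pairs among 488. Over 5000 and up to 10000 bp there were 108 among 702. These values come from the list that chose the members and are a description.

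How fold enrichment is scaled bears directly on these values. For adjacent BEAF-32 peaks up to 5000 bp apart, the fold enrichments of both peaks never summed to more than 32.5 over 706 pairs, whereas beyond 5000 bp the sum reached 61.0. The change was a step: the highest sum was 32.4 for spacings over 4000 and up to 5000 bp and 57.5 for spacings over 5000 and up to 6000 bp. In the ROW list the highest sum was 27.2 up to 5000 bp and 46.4 beyond. MACS2, which the submitters name, can take the local background from a window of 10000 bp around a summit, so that fragments of a neighbour within 5000 bp can count as background. The window and the control library are not given in the sources used here, and their part in the lower fold enrichment was not tested.

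**Figure D2:**
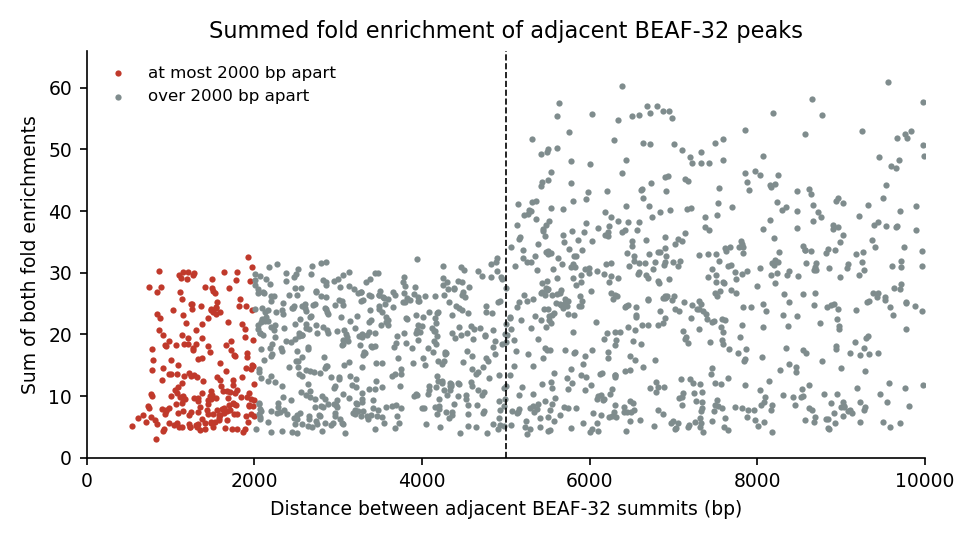
Sum of the fold enrichments of adjacent BEAF-32 peaks (vertical axis) against the distance between their summits (horizontal axis, bp), with 1 point per pair, pairs of at most 2000 bp in red and wider ones in grey. No sum lies above 32.5 left of the dashed line at 5000 bp, and sums reach 61.0 to the right of it.

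Strength was therefore also read as summit pileup, the number of fragments stacked over the summit. Fold enrichment and −log10 p together fix the pileup and the local background of a peak, and a whole-number pileup solved both deposited values in all 4781 BEAF-32 and all 8788 ROW peaks. By pileup close peaks were weaker too, with a median of 136 fragments (interquartile range 66 to 449) at close peaks and 236 fragments (77 to 988) at isolated peaks. The log2 difference of these medians was -0.80, against -0.93 for fold enrichment. Local background had a median of 25.4 fragments at close peaks and 23.6 at isolated peaks. It was at the lowest value of the list, 16.4 fragments, for 25.1% of close peaks and 37.2% of isolated peaks. Within quartiles of pileup the median background was equal in the lowest and higher at close peaks in the others. It was 22.6 fragments at close and 16.4 at isolated peaks in the second and 45.7 and 29.7 in the third. In the top quartile it was 102.6 and 75.6. Median fold enrichment was 8.92 at close and 14.7 at isolated peaks in the third quartile and 16.7 and 23.9 in the top one. Pileups of at least 1000 fragments were found at 51 of 423 close peaks (12.1%) and 580 of 2344 isolated peaks (24.7%). In 11 of 218 close pairs both peaks reached 1000 fragments, although no close pair had both at 16-fold or over. The scale moved the share of close peaks at both ends of the list. Of the 277 peaks with the highest fold enrichment 4 were close peaks (1.44%), but of the 277 with the highest pileup 20 were (7.22%). Of the 277 lowest peaks 66 were close peaks by fold enrichment (23.8%) and 52 by pileup (18.8%).

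The strengths of both peaks of a pair looked unrelated by fold enrichment and related by pileup. Across the 218 pairs Spearman's rho between the left and the right peak was 0.06 for fold enrichment and 0.68 for pileup. For adjacent peaks over 2000 and up to 5000 bp apart, rho was -0.04 for fold enrichment and 0.65 for pileup (488 pairs). Over 5000 and up to 10000 bp it was 0.10 for fold enrichment and 0.09 for pileup (702 pairs). Both peaks of a pair shared their background: the median difference between their 2 backgrounds was 0.01 on the log2 scale in pairs up to 2000 bp and 0.93 over 5000 and up to 10000 bp. A peak is listed only if it rises above that background, so a weak site beside a strong one can be missing, and the part of this in the correlation was not tested. The stronger peak was 1.92 times the weaker by fold enrichment in the median pair, and also 1.92 times by pileup. Over 2000 and up to 5000 bp the ratio was 2.10 by fold enrichment and 2.11 by pileup. Over 5000 and up to 10000 bp it was 2.13 by fold enrichment and 3.41 by pileup. Pairs with summits up to 1000 bp apart had the more even strengths, with a median log2 ratio in fold enrichment of 0.73, against 1.00 for those over 1500 and up to 2000 bp apart, but their interquartile ranges overlapped (0.24 to 1.63 and 0.45 to 1.76). Which side held the stronger peak was nearly balanced, with 103 on the left, 114 on the right and 1 tie.

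**Figure D3:**
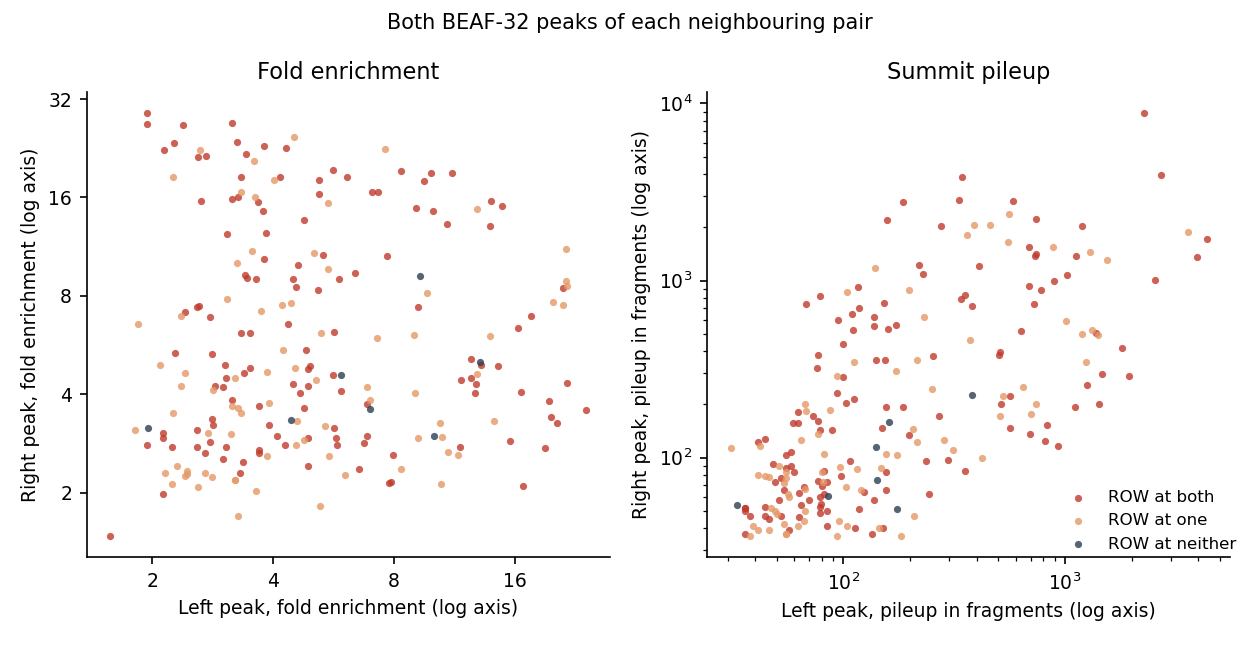
Left peak (horizontal axis) against right peak (vertical axis) of the 218 pairs, by fold enrichment in one panel and by summit pileup in fragments in the other, on log axes, with colours for ROW overlap at both, one or neither peak. The points scatter without a trend by fold enrichment (rho 0.06) and run along the diagonal by pileup (rho 0.68).

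Pairs were also ranked by the fold enrichment of their weaker peak. With sums of at most 32.5 at such distances, a high weaker peak leaves little room for a much stronger partner. Near equality in fold enrichment is thus partly set by this ranking and is not a finding. The pair whose weaker peak had the highest fold enrichment lay on 3R, from 11759270 to 11759799 and from 11760583 to 11761088, with summits 1286 bp apart. Its fold enrichments were 14.8 and 15.1 and its pileups 724 and 741 fragments, and a separate ROW peak of 3.27-fold and 2.68-fold lay at each. The next pair, on 2L from 19033280 to 19033799 and from 19034364 to 19034958, reached 14.0-fold and 15.6-fold at a spacing of 1100 bp. A single ROW peak of 7.78-fold spanned both of its peaks. A pair on 3R from 4864301 to 4864809 and from 4865120 to 4865627 reached 13.8-fold and 13.1-fold with summits only 843 bp apart, and again 1 ROW peak, of 6.02-fold, covered both. By pileup the fourth pair was higher than any of these, with 1304 and 1452 fragments on 3L at 16044190 and 16044929. ROW overlapped only its right peak, with a summit 69 bp from the BEAF-32 summit. Of the 8 pairs ranked highest in this way, 6 had ROW at both peaks.

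The closest pairs were weak on both sides. The closest one, 537 bp apart on 3R with summits at 5178087 and 5178624, had fold enrichments of 2.13 and 3.05 and pileups of 36 and 52 fragments. The following pair, 607 bp apart on 3L with summits at 7908491 and 7909098, had fold enrichments of 3.68 and 2.70. All of the 5 closest pairs had pileups under 100 fragments, a local background at the lowest value of the list and ROW at both peaks. Over all pairs, 65 of 218 had both pileups under 100 fragments, and 11 had both at 1000 or more.

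The most uneven pairs set a peak of low fold enrichment beside a very strong one. On 2L a peak of 1.94-fold from 8196888 to 8197161 lay 1974 bp from one of 29.0-fold from 8198646 to 8199302, with pileups of 185 and 2771 fragments, a ratio in fold enrichment of 14.9. Another on 2L paired 1.94-fold at 10987598 with 26.9-fold at 10989374, with pileups of 157 and 2209 fragments. ROW overlapped both peaks in all of the 5 most uneven pairs, and in 1 of them the same ROW peak covered both. In 3 of the others ROW fold enrichment was higher at the weak BEAF-32 peak than at the strong one. In the second pair it was 14.1 at the weak and 2.92 at the strong peak. Over all 98 pairs with separate ROW peaks, it was higher at the stronger BEAF-32 peak in 56. Over all pairs the stronger peak was at least 4 times the weaker by fold enrichment in 40 (18.3%).

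ROW overlapped most close peaks, and somewhat less often than isolated ones. By at least 1 bp a ROW peak overlapped 332 of 423 close peaks, 78.5% (95% Wilson interval 74.3 to 82.1), against 1958 of 2344 isolated peaks, 83.5% (82.0 to 85.0). The share over all BEAF-32 peaks on these arms was 82.8%. The difference was -5.05 percentage points (95% Newcombe interval -9.45 to -1.08). It was negative on each arm with intervals that included 0: -6.01 points on 2L (-13.9 to 0.681), -3.93 on 3L (-11.5 to 2.46) and -5.10 on 3R (-13.4 to 1.66). Counting only ROW peaks of at least 4-fold it was -9.17 points (-14.3 to -4.01). That cut is on the fold enrichment scale. By pileup the overlapping ROW peaks were higher at close peaks, with a median of 281.5 fragments against 239.5 at isolated peaks. Isolated peaks whose nearest BEAF-32 summit lay over 2000 and up to 3000 bp away had ROW at 78.0%. From there up to 5000 bp the share was 78.9%, up to 10000 bp 88.6%, up to 20000 bp 84.7% and beyond 81.5%. A lower share was thus not particular to close peaks. Among close peaks the share was 83.8% up to 1000 bp and 77.4% over 1000 bp. BEAF-32 strength and width moved with the difference between close and isolated peaks. Averaged within quartiles of pileup the difference was -3.65 points (-7.87 to 0.568), and within quartiles of width it was -0.60 points (-4.44 to 3.25). In the lowest quartile of pileup ROW was at 71.5% of close and 78.3% of isolated peaks, in the second at 77.3% of close and 78.5% of isolated peaks, and in the third at 85.4% of close and 82.1% of isolated peaks. Only the top quartile had an interval of the difference that excluded 0, with ROW at 47 of 56 close peaks (83.9%) and 597 of 636 isolated peaks (93.9%), a difference of -9.94 points (-21.8 to -2.26).

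**Figure D4:**
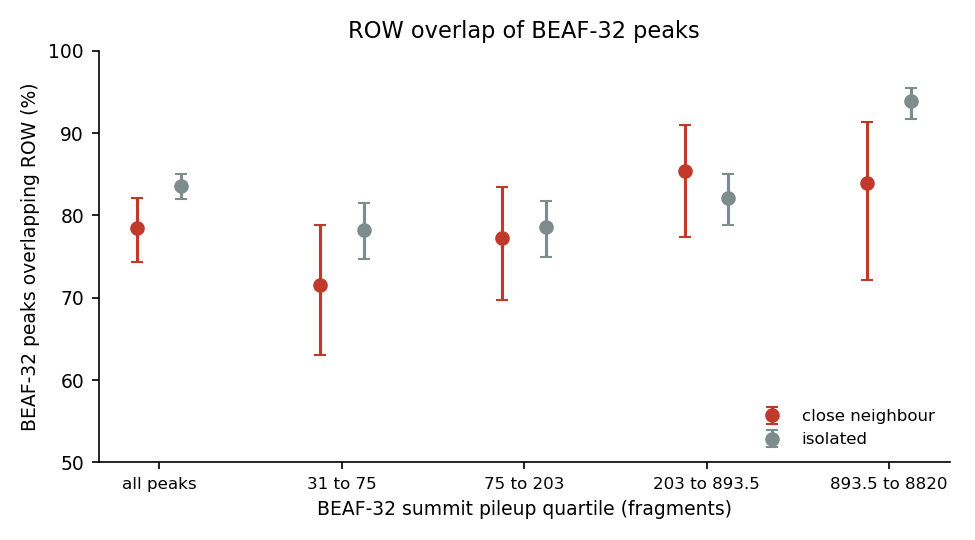
Percent of BEAF-32 peaks that overlap a ROW peak (vertical axis, cut at 50%) for all peaks and by quartile of BEAF-32 summit pileup (horizontal axis, fragments), for close peaks in red and isolated peaks in grey, with 95% Wilson intervals as bars. Over all peaks the close ones stand at 78.5% and the isolated ones at 83.5%, and the widest separation is in the top quartile, 83.9% against 93.9%.

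How well ROW and BEAF-32 intervals matched at close peaks depended on the measure. When at least 50% of both intervals had to overlap, ROW was at 217 of 423 close peaks (51.3%) and 1637 of 2344 isolated peaks (69.8%), a difference of -18.5 points (95% Newcombe interval -23.6 to -13.4). This rule depends on the widths of both intervals, and close BEAF-32 peaks were narrower (median 481 bp against 576 bp). Counted once per BEAF-32 peak, the overlapping ROW peak was more often wide at close sites. It measured at least 1000 bp at 29.2% of 332 close peaks and 16.2% of 1958 isolated peaks. In 33 close pairs the same ROW peak lay under both BEAF-32 peaks and entered this count for each of them. ROW summits were as near, with a median distance to the BEAF-32 summit of 87.5 bp at close peaks and 84.0 bp at isolated peaks. The upper quartile, however, was 240.5 bp at close and 167 bp at isolated peaks. A ROW peak under both peaks of a pair can enter these distances for both, and its part in the upper quartile was not tested. A ROW summit within 100 bp was found at 43.5% of all close peaks and 48.5% of all isolated peaks (difference -4.97 points, 95% Newcombe interval -10.0 to 0.207). Among peaks with ROW alone, the shares were 55.4% of close and 58.0% of isolated peaks. The direction in ROW strength, also counted once per BEAF-32 peak, depended on the scale. The median ROW fold enrichment was 5.54 at close peaks and 6.38 at isolated peaks, but the median ROW pileup was 281.5 fragments at close peaks and 239.5 at isolated peaks, on local backgrounds of 46.2 and 33.2 fragments. Of the 91 close peaks without ROW, 75 still had a ROW summit within 2000 bp, as had 123 of the 386 isolated peaks without ROW.

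In most pairs ROW was at both peaks, and pairs without any ROW were rare. ROW overlapped both peaks in 131 of 218 pairs, 60.1% (95% Wilson interval 53.5 to 66.4), exactly 1 in 80 pairs, 36.7% (30.6 to 43.3), and neither in 7 pairs, 3.21% (1.56 to 6.48). Over all adjacent BEAF-32 peaks on the arms, at any distance, ROW was at both in 68.7% and at exactly 1 in 28.2%. Adjacent peaks over 2000 and up to 5000 bp apart had ROW at both in 60.0% (55.6 to 64.3), with an interval that covers the value for close pairs. Over 5000 and up to 10000 bp the share was 75.9% (72.6 to 78.9) and beyond 10000 bp 69.4% (66.9 to 71.8), both above the interval of the close pairs. Within the close pairs it was 67.6% of those up to 1000 bp apart, 61.3% over 1000 and up to 1500 bp and 55.7% over 1500 and up to 2000 bp. The shares on the arms were alike, with ROW at both in 59.5% of pairs on 2L, 59.3% on 3L and 61.9% on 3R.

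Whether ROW at a peak went with ROW at its neighbour depended on the overlap asked for. With an overlap of at least 1 bp and each pair read in both directions, 262 of 342 peaks whose neighbour had ROW carried it too (76.6%), and so did 80 of 94 peaks whose neighbour had none (85.1%). The difference was -8.50 points, and its 95% Newcombe interval, -16.0 to 1.03, included 0. That interval is too narrow because each pair enters it in both directions. Counting each pair once gave the same difference with an interval from -18.7 to 5.51. With 50% reciprocal overlap the direction turned, to 25.6 points (16.3 to 34.3). Under that rule 71 pairs had ROW at both peaks and 66 at neither, against 131 and 7 at 1 bp. A wide ROW peak that spans both BEAF-32 peaks can fail the rule at both at once. The turned direction can therefore come from the definition itself, and the part of this was not tested.

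Where ROW was at exactly 1 peak, it was more often the stronger one. It lay at the stronger BEAF-32 peak, by fold enrichment, in 55 of 80 pairs, 68.8% (95% Wilson interval 57.9 to 77.8), and at the weaker in 25. For adjacent peaks over 2000 and up to 5000 bp apart this share was 52.0%, and over 5000 and up to 10000 bp 57.1%. Beyond 10000 bp it was 64.5%, inside the interval of the close pairs. Over all 218 pairs ROW was at 85.3% of stronger and 71.6% of weaker peaks. In these 80 pairs the BEAF-32 peak with ROW had a median fold enrichment of 5.18 and a median width of 518 bp, and the one without had 3.61 and 384 bp. The strongest of these pairs by their weaker peak went both ways. On 3L, with summits at 20779341 and 20781264, ROW lay 8 bp from the summit of the 21.4-fold peak and was missing from the 11.1-fold peak. On 2L, with summits at 3144892 and 3145761, the 21.4-fold peak had no ROW and the 8.92-fold peak had a ROW peak of 2.04-fold. On 2L, with summits at 5009748 and 5010896, the 21.5-fold peak likewise had none and the 8.56-fold peak had ROW at 13.2-fold, 92 bp from its summit.

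The 7 pairs without ROW included 1 of nearly equal strength far from any ROW site. It lay on 3R, from 26249380 to 26249832 and from 26250714 to 26251213, with fold enrichments of 9.26 and 9.20 and pileups of 160 and 159 fragments. Its nearest ROW summits were 26733 and 25434 bp away. The pair on 2L from 4452798 to 4453277 and from 4454328 to 4454658 had fold enrichments of 13.1 and 5.04 and its nearest ROW summits were 3868 and 2418 bp away. The weaker peaks of all 7 ranged from 1.96-fold to 9.20-fold, and their spacings from 1083 to 1854 bp.

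Of the 131 pairs with ROW at both peaks, 33 were covered by the same ROW peak and 98 had a ROW peak of their own at each BEAF-32 peak. The spanning ROW peaks were wide, from 858 to 2608 bp with a median of 1627 bp, whereas ROW peaks on the arms had a median of 575 bp. Pairs under a spanning ROW peak had a median spacing of 1100 bp, and those with separate ROW peaks one of 1476 bp. Fold enrichment of the spanning ROW peaks had a median of 7.78. Their summits did not sit midway: their median distance to the nearer BEAF-32 summit was 88 bp, 19 of 33 lay within 100 bp of it, and 23 of 33 lay nearer to the stronger BEAF-32 peak. Where each BEAF-32 peak had its own ROW peak, the higher ROW fold enrichment was at the stronger BEAF-32 peak in 56 of 98 pairs. ROW fold enrichment had a median of 5.49 at the stronger and 3.95 at the weaker BEAF-32 peaks of these pairs. Between left and right ROW peaks, Spearman's rho was -0.05 for fold enrichment and 0.51 for pileup over the 98 pairs, the same split between the scales as for BEAF-32.

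ROW summits between both BEAF-32 summits came almost always from ROW peaks that overlapped a BEAF-32 peak of the pair by at least 1 bp. There were 170 ROW summits in the 218 spans: 75 pairs had none, 116 had 1, 27 had 2, and no pair had more. A ROW peak that overlapped 1 of the BEAF-32 peaks gave 143 of these summits, a ROW peak that overlapped both gave 22, and only 5 belonged to ROW peaks that touched neither. A ROW peak that touches neither must fit between the facing edges. Their median gap was 845.5 bp and the median ROW peak on the arms measured 575 bp, so the low count is partly set by the space. Of the 170, 108 lay within 100 bp of a BEAF-32 summit and 146 within 250 bp, and the farthest lay 834 bp away. In the central part of the span, over 25% of its length from either end, lay 18. The 5 free ROW peaks were weak, from 2.12-fold to 2.87-fold, and lay 338 to 735 bp from the nearer BEAF-32 summit. Among the 27 pairs with 2 ROW summits between, the one with the highest weaker peak lay on 2L at 16825263 and 16827051, with BEAF-32 fold enrichments of 11.1 and 19.0. Its 2 ROW peaks, of 6.64-fold and 9.93-fold, had summits 34 and 44 bp inward of the BEAF-32 summits.

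Per length, ROW summits were denser between the peaks than beside them over the whole span, and no difference was detectable away from the BEAF-32 sites. The spans held 0.561 ROW summits per kb (exact Poisson interval 0.480 to 0.652), and flanks of the same length on the outer sides held 0.297 (0.255 to 0.344), a log2 ratio of 0.92 (0.61 to 1.23). This ratio counts a BEAF-32 site at both ends of each span but at 1 end of each flank. Without the 250 bp next to each end, a choice made after these values were seen, the spans held 24 ROW summits, 0.124 per kb (0.0793 to 0.184), and the flanks 47, 0.121 per kb (0.0890 to 0.161). The log2 ratio was then 0.03 (-0.74 to 0.77). Windows placed in the same way beside isolated peaks held 0.110 per kb (0.0998 to 0.120).

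Around the summits, any lean of ROW towards the neighbour was within counting error. In the 193 runs of 2 peaks, 127 ROW summits lay within 250 bp on the side of the neighbour and 102 on the other side, 55.5% on the neighbour's side (95% Wilson interval 49.0 to 61.8, which holds an even split). The BEAF-32 intervals themselves extended about equally far, a median of 231 bp from the summit towards the neighbour and 235.5 bp away from it, and 194 were longer towards the neighbour and 192 away from it. Per 100 BEAF-32 peaks, close peaks had 24.4 ROW summits in the first 100 bp towards the neighbour and 19.2 in the first 100 bp away from it. Isolated peaks had 24.0 and 24.3 on their sides. From 600 to 1000 bp towards the neighbour the counts rose again, to 4.15 per 100 close peaks in the last 100 bp, and pair spacings begin at 537 bp.

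**Figure D5:**
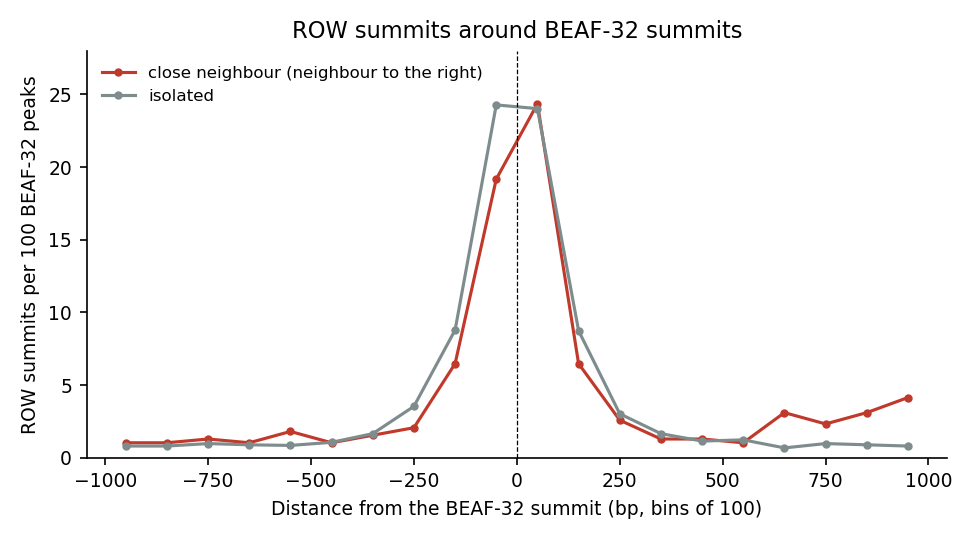
ROW summits per 100 BEAF-32 peaks (vertical axis) by distance from the BEAF-32 summit (horizontal axis, bp, bins of 100), for close peaks of runs of 2 in red, turned so that the neighbour lies to the right, and for isolated peaks in grey. Both profiles peak at the BEAF-32 summit, and the close peaks show a lower left shoulder (19.2 against 24.3 in the first 100 bp) and a rise beyond 600 bp on the side of the neighbour.

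Close peaks were spread over all 3 arms but took a smaller share on 3R. They made up 18.0% of the BEAF-32 peaks on 2L (145 of 805, 95% Wilson interval 15.5 to 20.8), 17.1% on 3L (155 of 904, 14.8 to 19.7) and 11.6% on 3R (123 of 1058, 9.83 to 13.7). Each of the 39 windows of 2 Mb held at least 2 of them. Among the 36 windows with at least 40 BEAF-32 peaks the share ran from 3.92% on 3R, from 8 to 10 Mb, to 28.9% on 2L, from 10 to 12 Mb. The lower strength was seen on every arm. The median pileup was 157 fragments at close and 228.5 at isolated peaks on 2L, 117 at close and 182 at isolated peaks on 3L, and 112 at close and 291 at isolated peaks on 3R.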

How the data were processed

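Peaks came from 6 samples, 3 for each antibody, grouped by sample title, since the antibody entry climbs by one between the BEAF-32 samples. Bowtie2, SAMtools, MACS2 and deepTools, and the build dm3, are named in the submitters' processing notes without versions or roles, and pooling and the control library are not given in the sources used here. The deposited lists have no header and follow the narrowPeak layout of 10 columns. The fold enrichment used is column 7 as the authors deposited it, a ratio to local background. Peak p and q came as deposited −log10 values in columns 8 and 9. The deposited score in column 5 is 10 times column 9 without decimals and was not used. Summits were placed with the deposited offset in column 10. Read totals are not in the lists.

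Pileup and background were solved from columns 7 and 8, taking fold enrichment as (pileup + 1) / (background + 1) and the p-value as the upper Poisson tail. A whole-number pileup reached the deposited −log10 p in 100% of peaks of both lists, to within 0.01 of the step that 1 fragment makes. This was done after seeing the data. Adjacent summits at most 2000 bp apart made a pair, and ROW counted as present at an overlap of at least 1 bp. Shares have 95% Wilson intervals, differences of shares Newcombe intervals and counts exact Poisson intervals. No p-value was computed, because peaks are not replicates. The members and lists were chosen with earlier results of these data known. Named are the 8 pairs with the highest fold enrichment of their weaker peak, 5 each with the closest summits, the largest ratio, ROW at neither, ROW at 1, and the most ROW summits between, and the 3 largest runs, of which the text gives a part. The scripts were tested on simulated data and used matplotlib 3.10.9, statsmodels 0.14.6, scipy 1.17.1, pandas 2.3.3 and numpy 2.4.6 under Python 3.11.15.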

Additional observations from a re-analysis of the deposited data

How the results depend on the processing

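No paired analysis was possible because the 3 samples of an antibody share 1 peak list, which also leaves no sample to drop in turn. The motif and gene start results were not run. Of 73 recalculations of 8 results, 5 of them added after the data were seen, 37 kept direction and call or stayed within the interval of the value reported.
The share of close peaks, 15.3%, was 2.67% with a limit of 1000 bp, 27.8% with 3000 bp, 12.5% with −log10 q of at least 10, 18.0% on 2L, 17.1% on 3L and 11.6% on 3R. The median spacing, 1387 bp, was 863 bp with a limit of 1000 bp and 1935 bp with 3000 bp, by construction.
The difference in ROW share, -5.05 points, was 1.05 at 1000 bp, with an interval (-9.07 to 7.90) that holds both -5.05 and 0. Its interval also included 0 at −log10 q of at least 10 (-4.95), on 2L (-6.01), 3L (-3.93) and 3R (-5.10). The same held with ROW summits within 100 bp (-4.97), and within quartiles of fold enrichment (-3.20), width (-0.60) and pileup (-3.65). With ROW peaks of at least 4-fold the difference was larger, -9.17 points (-14.3 to -4.01). This cut is on the fold enrichment scale, where ROW was lower at close peaks although its median pileup was higher there.
The share of pairs with ROW at both, 60.1%, was 67.6% at 1000 bp, 32.6% with 50% of both intervals overlapping, 19.7% with summits within 100 bp and 25.7% with ROW peaks of at least 4-fold. The difference by the neighbour's ROW, -8.50 points, turned to 25.6 with 50% overlap and was 2.02 at −log10 q of at least 10, 3.80 with summits within 100 bp and 7.29 with ROW of at least 4-fold.
The log2 ratio of ROW summits between peaks to flanks, 0.92, was -0.18 at 1000 bp, with an interval that included 0 (-1.16 to 0.73). For ROW summits over 250 bp from the ends it was 0.0304.
Between close and isolated peaks the log2 difference in fold enrichment, -0.93, was -0.71 on 2L, -0.80 on 3L, -1.09 on 3R, -0.67 in the middle of the width range, -1.59 for −log10 q and -0.80 for pileup. The log2 ratio within pairs, 0.94, was 0.73 at 1000 bp, 1.29 on 2L and 1.94 for −log10 q. Where no construction is named, the cause was not tested.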

Other observations

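The same rule was applied to the arms left out above. On 2R 163 of 911 BEAF-32 peaks were close peaks (17.9%, 95% Wilson interval 15.5 to 20.5), on X 121 of 776 (15.6%, 13.2 to 18.3) and 32 of 76 on the small chromosome 4 (42.1%, 31.6 to 53.3). Median fold enrichment was 4.54 at close and 9.03 at isolated peaks on 2R, 4.92 at close and 11.9 at isolated peaks on X, and 5.05 at close and 7.53 at isolated peaks on chromosome 4. ROW overlapped 80.4% of close and 81.7% of isolated peaks on 2R, 70.2% of close and 73.3% of isolated peaks on X, and 90.6% of close and 86.4% of isolated peaks on chromosome 4.

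Some BEAF-32 peaks without a listed neighbour were wide. Of the close peaks 12 (2.84%) and of the isolated peaks 125 (5.33%) measured at least 1000 bp. ROW overlapped 121 of these 125 isolated peaks (96.8%), and their median fold enrichment was 11.3. More than 1 ROW peak was overlapped by 0 close peaks and by 10 isolated peaks, whose median width was 1206 bp.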
